A study of Mus musculus with 8 samples.

Results

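Microtubules are polymers of alpha- and beta-tubulin dimers, and mammals hold several genes for each of the 2 subunits. The proteins made from these genes, called isotypes, differ mainly in their acidic C-terminal tails. In dividing epithelial cells microtubules build the mitotic spindle, and in resting cells they carry cargo and help to set cell shape. Stathmin, the product of Stmn1, binds free tubulin dimers and favours the shrinkage of microtubules, and it is inactivated by phosphorylation when cells enter mitosis. The 10 genes described here are the alpha-tubulins Tuba1a, Tuba1b and Tuba1c, the beta-tubulins Tubb2a, Tubb2b, Tubb3, Tubb4b, Tubb5 and Tubb6, and Stmn1, out of 38293 gene identifiers in the bulk tables. They were chosen from earlier results of the same libraries, in which the SOX4KO to control difference was known, so that difference is described for them and not tested.

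Tumor organoids of the MMTV-PyMT; MMTV-Cre; Ecadherin-mCFP mouse were the source of every library. In these mice the MMTV promoter drives the polyoma middle T oncogene and the Cre recombinase in mammary epithelium. SOX4KO lines had been made with CRISPR/Cas9, and every line was harvested 4 days after plating as single cells in medium with B27 and FGF2. Bulk RNA-sequencing covered the control lines WT1 and WT3 and the SOX4KO lines H7, M4 and H4, with 1 library each, and single-cell RNA-sequencing covered the control library GR17 and the SOX4KO libraries GR18 and GR19. The age of the mice and the bulk lines behind the single-cell libraries are not given in the labels, and where lines were not derived separately a spread between them may be technical.

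Reads assigned to genes numbered 3050323 to 4678497 per bulk library, and 45.7% to 53.0% of all entries in the deposited tallies were set aside as not uniquely aligned. Whether a read with several alignments was entered more than once is not given, so these may not be shares of reads. Each single-cell plate had 384 wells under the same well names, of which 369, 369 and 362 wells with at least 1000 unique molecular identifiers (UMIs) were kept in GR17, GR18 and GR19. Their median depth was 19845, 20525 and 21876 UMIs. Sox4, the targeted gene, was still transcribed, with 295 and 374 CPM (counts scaled to a library total of 1000000, with that total multiplied by a TMM factor in bulk) in WT1 and WT3 and 199, 179 and 299 CPM in H7, M4 and H4. The edited position is not given in the labels, so its transcript count does not check the knockout. The organoids held epithelial transcripts, with luminal markers summing to 1570, 1637 and 2009 CPM and basal markers to 3658, 3217 and 1611 CPM in GR17, GR18 and GR19. In bulk the luminal markers summed to 2823, 2914, 2042, 2097 and 2703 CPM in WT1, WT3, H7, M4 and H4. The basal markers summed to 576.5, 374, 765, 1313 and 493 CPM in the same order. Luminal sums thus exceeded basal sums in every bulk line, unlike in GR17 and GR18, and this difference between the assays was not tested. Among markers of other cell types, the 5 immune markers summed to at most 2.72 CPM and the 5 fibroblast markers to at most 5.74 CPM in the single-cell libraries. In bulk the fibroblast markers, mostly Pdgfra, summed to 93.5 and 102 CPM in WT1 and WT3 and 92.4, 57.2 and 76.4 CPM in H7, M4 and H4, and the immune markers to 1.79 to 3.60 CPM in 4 lines and 14.4 CPM in H7. The part of these markers in the tubulin values was not tested. Acta2, Myh11 and Tagln, contractile markers of myoepithelial cells, stayed at or below 0.389 CPM in the single-cell libraries and 1.08 CPM in bulk. Oxtr, the oxytocin receptor gene on the basal list, had 1 UMI in GR17 and 42 and 46 UMIs in GR18 and GR19. On the same list, Krt17 had 1174, 36 and 12 UMIs and Krt5 1867, 1466 and 519 CPM in GR17, GR18 and GR19. Krt14 had 1586, 1662 and 1019 CPM and Trp63 51.5, 79.8 and 65.0 CPM in the same order, so the basal markers did not move together.

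The tubulin genes are so alike that reads are hard to place. Coding sequences of Tuba1a and Tuba1b, read from the GENCODE M21 transcripts of GRCm38, were identical at 1333 of 1356 aligned bases (98.3%), and Tuba1b and Tuba1c at 97.9%.

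The beta-tubulins were less alike, except for Tubb2a and Tubb2b. That pair shared 96.5% of aligned coding bases, whereas all other pairs of beta-tubulins shared 80.2% to 85.9%. The end of the coding sequence, stop codon included, encodes the C-terminal tail and is printed 5′ to 3′ for 4 of them, with capitals at each base that differs from Tubb5 in the alignment.
Tubb5: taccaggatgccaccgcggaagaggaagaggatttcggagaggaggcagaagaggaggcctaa
Tubb2a: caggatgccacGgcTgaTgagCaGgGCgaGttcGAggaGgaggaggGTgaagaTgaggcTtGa
Tubb2b: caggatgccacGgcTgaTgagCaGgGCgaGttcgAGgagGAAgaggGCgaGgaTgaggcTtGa
Tubb4b: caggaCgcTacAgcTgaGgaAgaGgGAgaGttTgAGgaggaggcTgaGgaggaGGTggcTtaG
All 4 lie on the minus strand of GRCm38, at chr17:35834982-35835044 for Tubb5, chr13:34074468-34074530 for Tubb2a, chr13:34127471-34127533 for Tubb2b and chr2:25222308-25222370 for Tubb4b. Tubb2a, Tubb2b and Tubb4b differed from Tubb5 at 16, 19 and 20 of the 63 bases, with bases aligned to a gap in Tubb5 counted as differing. Their coding sequences hold 1338 bases against 1335 for Tubb5, so the printed stretches do not start at the same aligned base.

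How much of each transcript could be told apart was measured as the share of its 50-base windows found in no other annotated gene. It was 16.9% for Tuba1b, 24.5% for Tuba1a and 39.0% for Tuba1c, and within the coding sequence 4.36%, 6.12% and 9.38%. Tubb4b (44.5%), Tubb2a (50.4%), Tubb2b (60.7%) and Stmn1 (63.5%) were intermediate, since they share windows with each other or with pseudogenes. For Tubb5 the share was 99.9%, and for Tubb3 and Tubb6 100%. Over the last 500 bases, the end at which the single-cell method counts, the share was 43.7% for Tuba1a, 18.6% for Tuba1b, 31.7% for Tuba1c, 97.6% for Stmn1 and 100% for Tubb2b, Tubb5 and Tubb6. Reads that map to several places are dropped from the bulk counts, so the bulk levels of Tuba1a, Tuba1b, Tuba1c, Tubb2a and Tubb4b rest on parts of their transcripts. How the single-cell counting treated such reads is not given in the sources used here, and values of these genes are uncertain to that extent.

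In bulk, no tubulin gene and not Stmn1 was called. Of the 10 genes, 9 had counts high enough for edgeR's test, and none was past an adjusted p of 0.1, against 6.27% of the 11682 genes tested (733 genes). Among these 9, every SOX4KO line lay below both control lines for 5 genes, Tuba1a, Tubb2b, Tubb4b, Tubb5 and Stmn1, where 17.9% of all genes tested did so. For none of the 9 did every SOX4KO line lie above both controls, where 19.0% of all genes did. The median log2 difference was −0.32 over the 9 genes and 0.0087 over all genes tested. Because the genes were chosen with this contrast known, nothing is read from these counts. In bulk RNA, fewer cells of a type and less RNA per cell cannot be told apart.

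**Figure D1:**
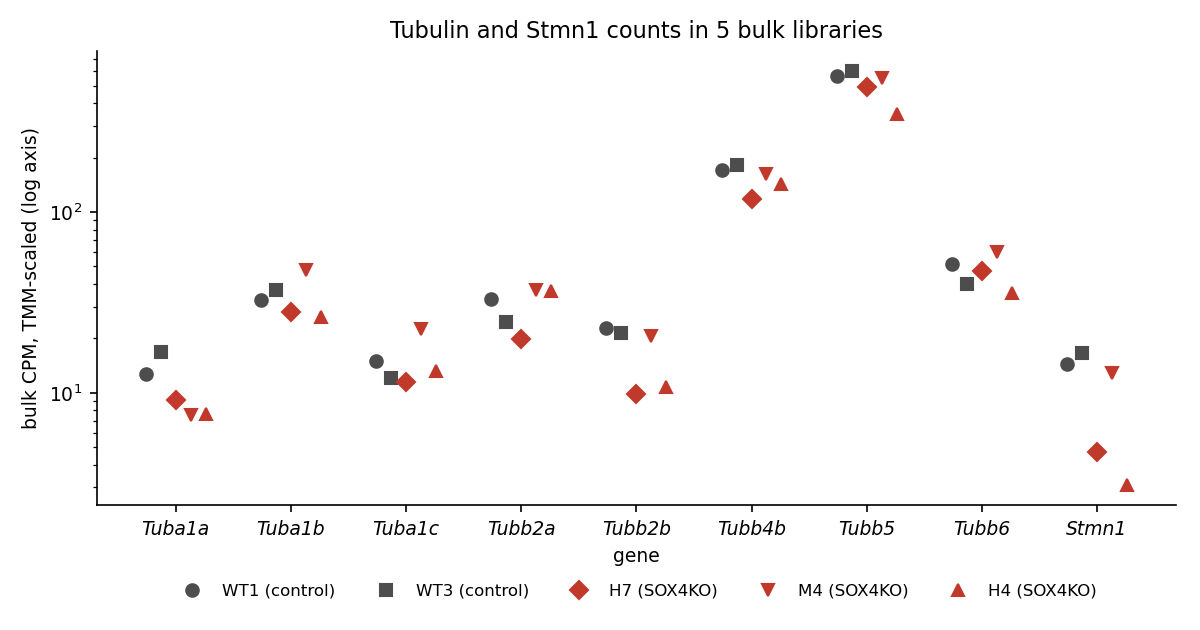
Normalized bulk CPM on a log axis for 9 genes (x axis), with 1 point per library, grey for the control lines and red for the SOX4KO lines. Stmn1 shows the widest spread among SOX4KO lines, with M4 near the controls and H4 lowest, and Tubb5 is the most counted gene in all 5 lines.

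Among the alpha-tubulins, Tuba1a stood apart. Tuba1a, the main alpha-tubulin of developing neurons, had 12.7 and 16.7 CPM in WT1 and WT3, against 9.13, 7.56 and 7.66 CPM in H7, M4 and H4. The groups did not overlap, and the means were 14.7 ± 2.86 (SD, n = 2) and 8.12 ± 0.880 (SD, n = 3), a log2 difference of −0.86 with a standard error of 0.28. These values rest on 49 and 84 reads in the controls and 21 to 35 reads in the SOX4KO lines. Tuba1b, a ubiquitous alpha-tubulin, had 32.6 and 36.8 CPM in WT1 and WT3 and 27.9, 47.5 and 26.3 in H7, M4 and H4. M4 was the highest of all 5 lines and the groups overlapped, with a log2 difference of −0.049 (standard error 0.28). Tuba1c, encoded beside Tuba1a and Tuba1b on the same chromosome, had 15.0 and 12.1 CPM in the controls and 11.5, 22.7 and 13.2 in H7, M4 and H4, again with M4 highest (log2 difference 0.20, standard error 0.34).

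Tubb5, a widely expressed beta-tubulin, had 563 and 599 CPM in WT1 and WT3 and 489, 554 and 350 in H7, M4 and H4. M4 lay just under WT1 and H4 was lowest, and the log2 difference was −0.32 (standard error 0.22). Tubb4b, a beta-tubulin that is also used in cilia, had 171 and 182 CPM in the controls and 119, 161 and 142 in H7, M4 and H4, a log2 difference of −0.33 (standard error 0.18). Both genes lay lower in all SOX4KO lines, but the SOX4KO line nearest to the controls was closer to them than to the lowest SOX4KO line.

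Tubb2b, a beta-tubulin known from neurons, had 22.8 and 21.3 CPM in the controls and 9.91, 20.5 and 10.8 in H7, M4 and H4, so that only M4 was close to the controls (log2 difference −0.71, standard error 0.33). Its near copy Tubb2a had 32.9 and 24.7 CPM in the controls and 19.8, 37.1 and 36.4 in H7, M4 and H4, with overlapping groups (log2 difference 0.11, standard error 0.30). Tubb6 had 51.5 and 39.8 CPM in the controls and 47.0, 60.5 and 35.7 in H7, M4 and H4, also overlapping (log2 difference 0.058, standard error 0.25). Tubb3, the neuron-enriched beta-tubulin, had at most 1 read per line and was not tested.

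Stmn1 had the most negative log2 difference of the 9 genes in bulk, and its SOX4KO lines lay far apart. It had 14.5 and 16.5 CPM in WT1 and WT3, against 4.70, 13.0 and 3.11 CPM in H7, M4 and H4. H7 and H4 lay far below the controls, with 18 and 13 reads, whereas M4 lay just under WT1 with 36 reads. The log2 difference was −1.22 (standard error 0.51), and without M4 it was −1.995. M4 was also the highest SOX4KO line for the other members tested, with the exception of Tuba1a, where it was the lowest. Basal markers summed to 1313 CPM in M4, against 765 in H7, 493 in H4, 577 in WT1 and 374 in WT3, and the part of this in the tubulin values was not tested.

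In the single-cell libraries the same genes were lower in both SOX4KO libraries, with the exception of Tubb2a. UMIs were summed over the kept wells of each library and given as CPM, with exact Poisson intervals at 95% that cover counting error only. With 1 control library there is no replicate check and no test. Among the 9 members whose mean over the 3 libraries was 20 CPM or more, 8 were lower in both SOX4KO libraries, which held for 42.5% of all 6303 such genes. Tuba1a and Stmn1 were at least 2-fold lower in both, as were 0.317% of all genes (20 genes). Nothing is read from these counts either. The median log2 ratio over the 2 SOX4KO libraries was −0.79 for the 9 genes and −0.024 for all 6303.

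**Figure D2:**
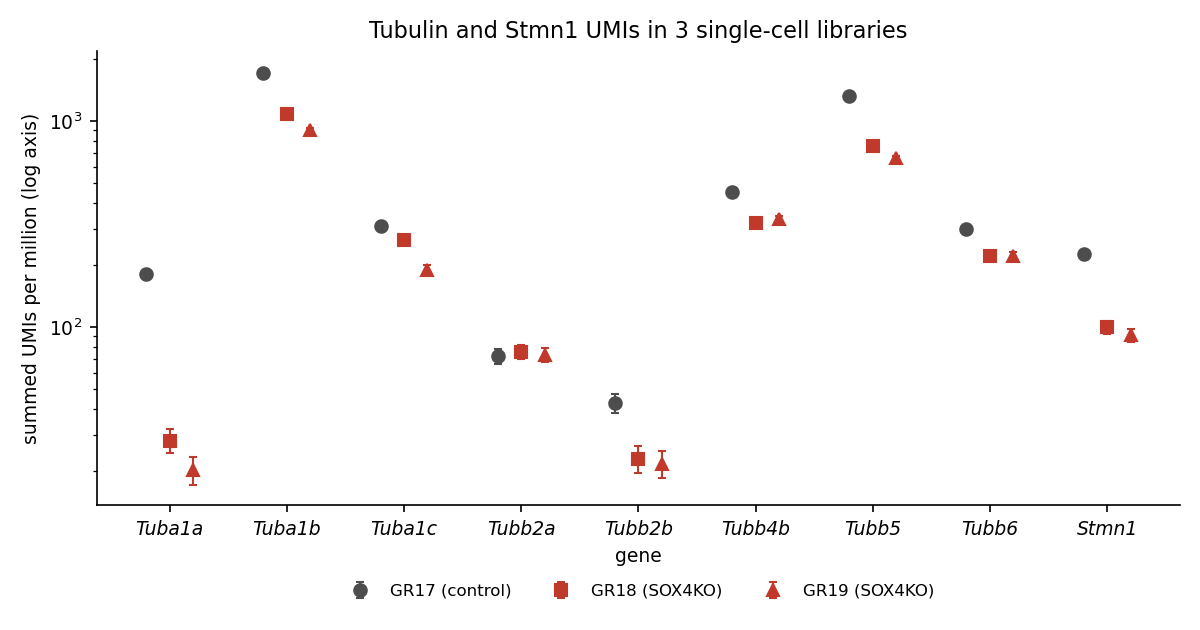
CPM from summed UMIs on a log axis for 9 genes (x axis) in the control library GR17 (grey) and the SOX4KO libraries GR18 and GR19 (red), with bars for exact 95% Poisson intervals, which cover counting error only. Tuba1a falls furthest below the control, Stmn1 next, and the Tubb2a points lie together.

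Tuba1a had 180 CPM (95% interval 171 to 190) in the control library, and 28.0 (24.4 to 31.9) and 20.1 (17.2 to 23.4) in GR18 and GR19. With 1 CPM added, it was 6.26-fold lower in GR18 and 8.59-fold lower in GR19, and its mean log2 ratio of −2.88 ranked 2 from the lowest among the 6303 genes. Because the genes were chosen with this contrast known, nothing is read from the rank. The levels corresponded to 3.77 UMIs per well in GR17 and 0.607 and 0.461 UMIs per well in GR18 and GR19. The highest single well had 18 Tuba1a UMIs in GR17, 8 in GR18 and 7 in GR19.

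Tuba1b was the most abundant of the tubulins, with 1712 CPM (1683 to 1742) in the control library, and 1078 (1056 to 1101) and 904 (883 to 924) in GR18 and GR19. It was 1.59-fold and 1.89-fold lower in the SOX4KO libraries. Tuba1c had 309 CPM (297 to 322) in the control library, and 264 (253 to 275) and 190 (180 to 199) in GR18 and GR19, and GR18 lay closer to the control than to GR19.

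Tubb5 had 1325 CPM (1299 to 1351) in the control library, and 753 (734 to 772) and 658 (641 to 676) in GR18 and GR19, which was 1.76-fold and 2.01-fold lower. Tubb4b had 452 CPM (437 to 467) in the control library, and 320 (308 to 333) and 335 (322 to 347) in GR18 and GR19. Tubb6 had 298 CPM (286 to 310), 221 (211 to 232) and 220 (210 to 231) in the same order. For Tubb4b and Tubb6 the intervals of both SOX4KO libraries overlapped each other and lay below that of the control.

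The 2 near-identical beta-tubulins again differed. Tubb2b had 42.6 CPM (38.2 to 47.5) in the control library, and 22.8 (19.7 to 26.4) and 21.6 (18.5 to 25.0) in GR18 and GR19, whereas Tubb2a had 71.9 CPM (66.1 to 78.2), 75.9 (70.0 to 82.2) and 73.2 (67.5 to 79.2). All 3 intervals of Tubb2a overlapped. Tubb3 had 1 UMI in GR17 and none in GR18 and GR19, where the floor of 3 UMIs per library stands at 0.375 and 0.362 CPM. Stmn1 had 225 CPM (215 to 236) in the control library, and 99.5 (92.7 to 107) and 91.2 (84.9 to 98.0) in GR18 and GR19, and was 2.25-fold and 2.45-fold lower.

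**Figure D3:**
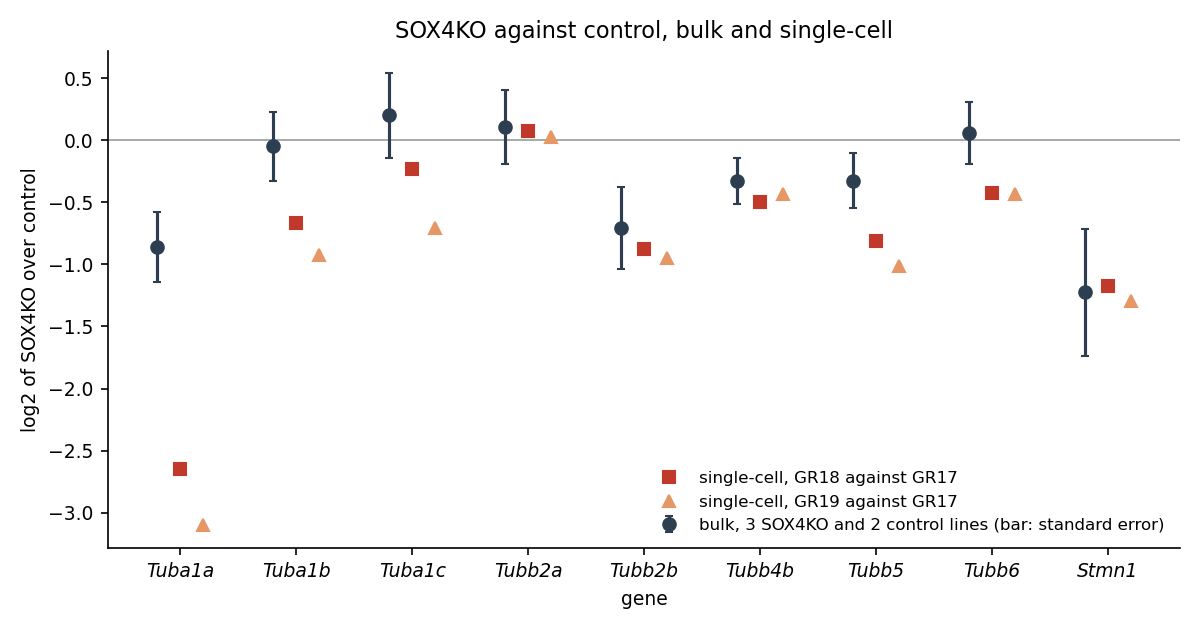
Log2 of SOX4KO over control for 9 genes (x axis), as the edgeR estimate of 3 SOX4KO and 2 control bulk lines with its standard error (dark circles) and as the ratio of GR18 or GR19 to GR17 with 1 CPM added (red squares and orange triangles, no replicate error). Tubb2b, Tubb4b and Stmn1 lie close in both assays, and Tuba1a, Tuba1b, Tuba1c, Tubb5 and Tubb6 lie lower in the single-cell libraries than in bulk.

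Set side by side, the bulk log2 difference and the 2 single-cell log2 ratios were −1.22, −1.17 and −1.29 for Stmn1, and −0.71, −0.87 and −0.95 for Tubb2b. For Tuba1a they were −0.86, −2.65 and −3.10, and for Tuba1b −0.049, −0.67 and −0.92. For Tubb5 they were −0.32, −0.81 and −1.01, and for Tubb6 0.058, −0.43 and −0.43. The share of unique windows was 24.5% for Tuba1a and 16.9% for Tuba1b, against 99.9% for Tubb5 and 100% for Tubb6. The difference between the assays was not tested, and the assays differ in counting and library method, and whether they share lines is not given.

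The isotypes that made up the tubulin pool were few. Since UMIs are counted once per transcript end, shares within a family need no scaling for length. Tuba1b made up 77.8%, 78.7% and 81.2% of alpha-tubulin UMIs in GR17, GR18 and GR19, and Tuba1c 14.0%, 19.2% and 17.0%. Tuba1a made up 8.20% (exact Clopper-Pearson 95% interval 7.79% to 8.62%) in the control library, and 2.04% (1.79% to 2.32%) and 1.81% (1.55% to 2.10%) in GR18 and GR19. Among beta-tubulins, Tubb5 made up 60.5%, 54.0% and 50.3%, Tubb4b 20.6%, 23.0% and 25.6%, Tubb6 13.6%, 15.9% and 16.8%, and Tubb2a 3.29%, 5.45% and 5.59%. Tubb2b stayed between 1.64% and 1.95%.

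**Figure D4:**
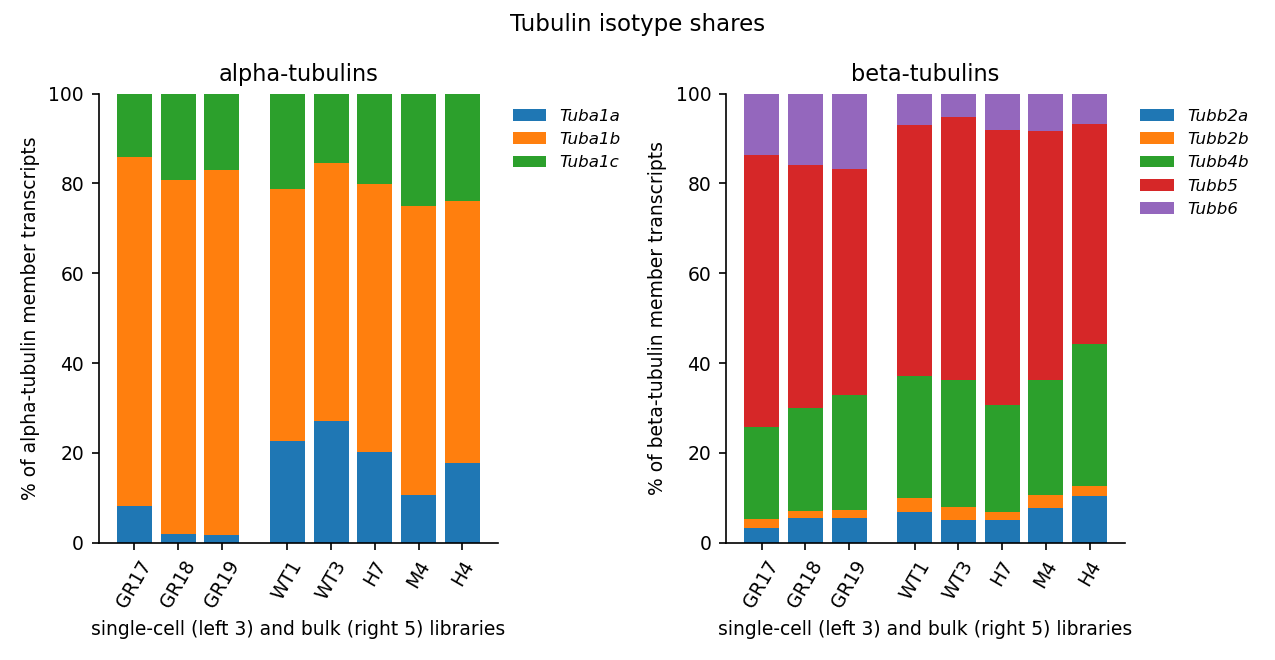
Share of each member (y axis, percent, stacked to 100) among alpha-tubulin (left) and beta-tubulin (right) transcripts in 3 single-cell and 5 bulk libraries (x axis), from UMIs in single cells and from counts per kilobase in bulk. Tuba1b and Tubb5 are the largest segment among the plotted members of their family in all 8 libraries. Tuba4a is not plotted, and per kilobase it exceeded Tuba1b in every bulk line. The Tuba1a segment is smaller in GR18 and GR19 than in GR17.

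Alpha-tubulin members had 16986 and beta-tubulin members 16891 UMIs in GR17, a ratio of 1.01, and the ratio was 0.983 in GR18 and 0.851 in GR19. Together they took 0.439% of all UMIs in GR17, 0.276% in GR18 and 0.242% in GR19. Tuba4a, an alpha-tubulin outside the chosen genes, had 124 CPM (116 to 132) in the control library, and 146 (137 to 154) and 145 (137 to 153) in GR18 and GR19, and so exceeded Tuba1a in both SOX4KO libraries. With Tuba4a counted in, it made up 5.32%, 9.61% and 11.5% of alpha-tubulin UMIs. In bulk, counts were divided by the merged length of all annotated exons of each gene. Tuba1b then made up 56.1% to 64.2% of the alpha-tubulin members over the 5 lines. Tuba1a made up 22.7% and 27.1% of these members in WT1 and WT3, against 20.3%, 10.6% and 17.7% in H7, M4 and H4. Tubb5 made up 48.9% to 61.3% of the beta-tubulin members in the 5 lines. The members of the families were far from equal in bulk. Over the 5 lines the alpha-tubulin members, without Tuba4a, summed to 24.1 to 39.4 CPM per kilobase and the beta-tubulin members to 215 to 308. Tuba4a alone had 30.8, 25.4, 31.8, 37.7 and 44.0 CPM per kilobase in WT1, WT3, H7, M4 and H4. Tuba1b had 17.4, 19.65, 14.9, 25.3 and 14.05 in the same order, so Tuba4a exceeded it in every bulk line. These bulk values carry the unequal unique sequence of the genes. The UMI shares and ratios may carry it too, since how the single-cell counting treated multiply mapped reads is not given. Their intervals do not cover this.

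Phases of the cell cycle were then scored from the S and G2M genes of Seurat, without any of the 10 genes, since Tubb4b is itself on the G2M list. Of the kept wells, 20.9% were scored G1 in GR17, 43.9% in GR18 and 40.9% in GR19, and 35.8%, 28.7% and 26.2% were scored G2M. G1 wells were also shallower, with a median of 14766 UMIs in GR17 against 20932 in G2M wells. Between 4.97% and 7.59% of wells lay within 0.05 of the cut on their better score. These scores may read free RNA as well, which was not measured, and no cycling is read from them.

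For 6 of the 9 genes, CPM were at least 1.5-fold higher in G2M wells than in G1 wells in all 3 libraries, as they were for 6.49% of the 6303 genes that averaged 20 CPM or more. These were Tuba1b, Tuba1c, Tubb4b, Tubb5, Tubb6 and Stmn1. In S wells, 5 of the 9 genes, the same without Tuba1c, were at least 1.5-fold above G1 wells in all 3 libraries, against 8.33% of all genes. Tubb6 had the widest range, with 109, 69.7 and 75.1 CPM in G1 wells and 412, 379 and 385 CPM in G2M wells of GR17, GR18 and GR19, a G2M to G1 ratio of 3.76, 5.38 and 5.07. Tubb4b had 216, 136 and 149 CPM in G1 wells and 624, 581 and 619 CPM in G2M wells, with ratios of 2.88, 4.25 and 4.13. Both genes reached nearly equal levels in the G2M wells of the 3 libraries, while their G1 levels were lower in the SOX4KO libraries.

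Tuba1b had 693, 435 and 356 CPM in G1 wells and 2012, 1564 and 1300 CPM in G2M wells, with most of the increase already present in S wells (1803, 1342 and 1117 CPM). Tubb5 followed the same course, from 773, 379 and 310 CPM in G1 to 1359, 911 and 828 in S and 1506, 1031 and 863 in G2M. Tuba1c instead was highest in G2M wells, at 431, 405 and 310 CPM, against 258, 243 and 179 in S wells and 168, 164 and 106 in G1 wells. Stmn1 had 150, 56.4 and 58.8 CPM in G1 wells and 236, 141 and 112 CPM in G2M wells.

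**Figure D5:**
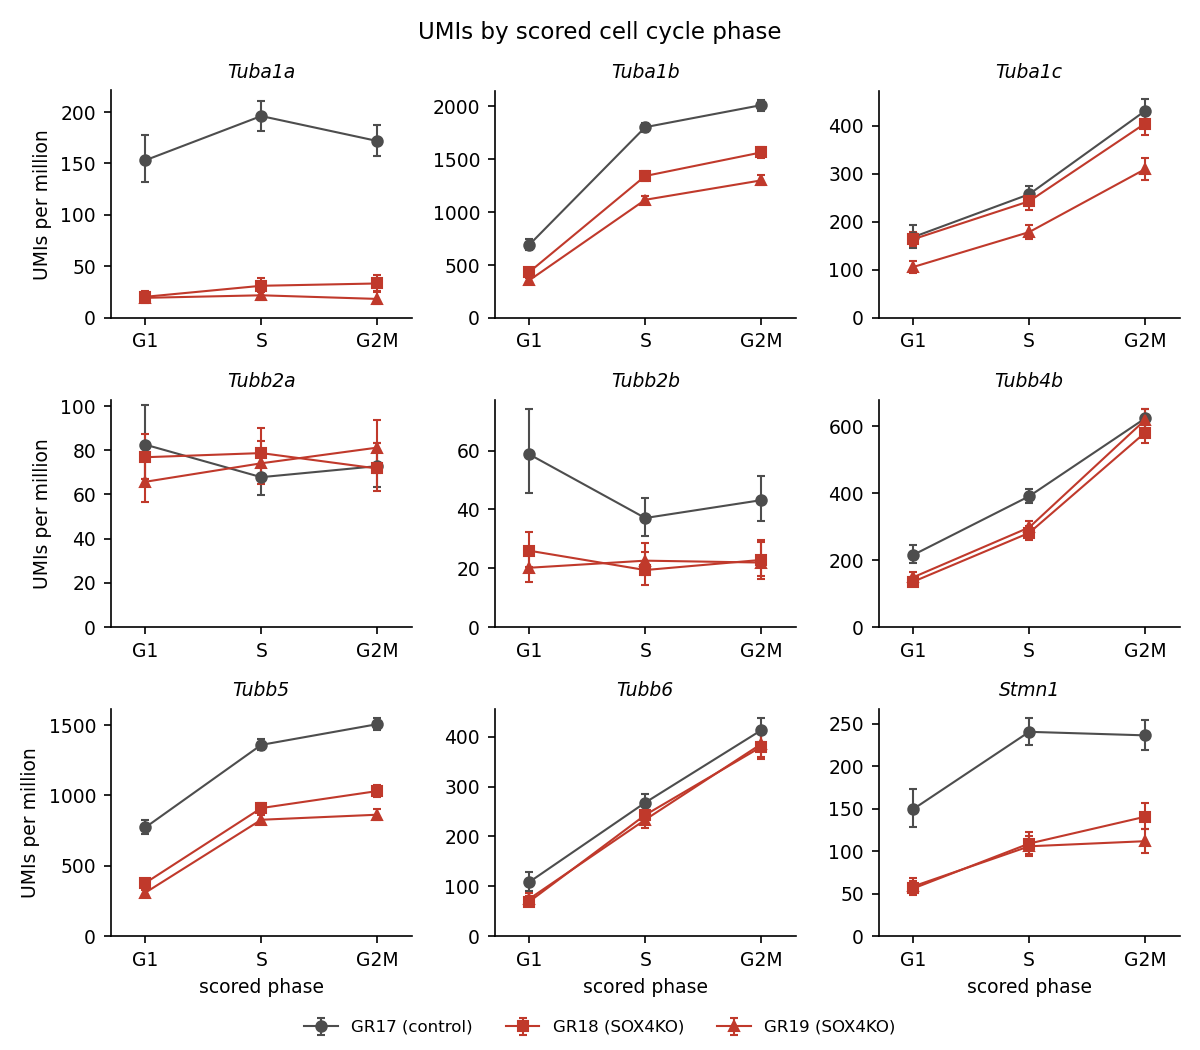
CPM (y axis, from 0) of 9 genes in wells scored G1, S and G2M (x axis) of GR17 (grey), GR18 and GR19 (red), with exact 95% Poisson intervals. Tubb4b and Tubb6 converge in G2M, Tuba1a stays separated between control and SOX4KO libraries in every phase, and Tubb2a lies at 65.8 to 82.5 CPM in every phase and library.

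Tuba1a, Tubb2a and Tubb2b were not 1.5-fold higher in G2M than in G1 wells in all 3 libraries, although Tuba1a was 1.60-fold higher in GR18. Tuba1a had 153, 196 and 172 CPM in the G1, S and G2M wells of GR17, 20.5, 31.2 and 33.4 in GR18, and 19.5, 21.9 and 18.4 in GR19. Within each phase it was thus 5.02-fold to 8.90-fold lower in the SOX4KO libraries. Tubb2b was 1.61-fold to 2.82-fold lower within phases, and its intervals in GR17 were wide, since its level there was only 37.1 to 58.7 CPM.

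The SOX4KO libraries had more G1 wells, so levels were also compared within phases. In G1 wells Tubb5 was 2.04-fold and 2.49-fold lower in GR18 and GR19 than in GR17, and in G2M wells 1.46-fold and 1.74-fold. Stmn1 was 2.63-fold and 2.52-fold lower in G1 wells and 1.68-fold and 2.10-fold in G2M wells. Tubb4b was 1.59-fold and 1.45-fold lower in G1 wells and 1.07-fold and 1.01-fold in G2M wells, where the Poisson intervals of all 3 libraries overlapped. With each phase given the same weight, a setting added after seeing the data, the mean log2 ratio over both SOX4KO libraries moved from −0.79 to −0.57 for Tuba1b, from −0.46 to −0.25 for Tubb4b and from −0.43 to −0.19 for Tubb6. It moved from −0.47 to −0.30 for Tuba1c, from −0.91 to −0.75 for Tubb5, from −1.23 to −1.10 for Stmn1 and from −2.88 to −2.82 for Tuba1a. For Tubb2b it moved the other way, from −0.91 to −1.03, and for Tubb2a it was 0.050 and 0.0063.

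Across wells within a library, a similar division appeared as a description, least clearly for Stmn1 in GR17. Spearman's rho with the G2M score, over 369, 369 and 362 wells, was 0.588, 0.729 and 0.748 for Tuba1b and 0.605, 0.689 and 0.711 for Tubb4b in GR17, GR18 and GR19. It was 0.619, 0.634 and 0.706 for Tubb6 and 0.545, 0.661 and 0.651 for Tubb5. For Tuba1c it was 0.606, 0.469 and 0.556, and for Stmn1 0.272, 0.508 and 0.441. For Tuba1a it was between 0.0409 and 0.127, and for Tubb2a between 0.0416 and 0.131. With the share of basal markers, rho was 0.354, 0.205 and 0.173 for Tuba1a and −0.0116, −0.264 and −0.331 for Tubb2a. All wells of a library share 1 plate, and every gene but Tubb3 rose with the depth of the well, with rho from 0.102 to 0.403.

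The genes whose levels were most like each member were found among those with at least 1 UMI per kept well, by the Pearson correlation of log-normalised UMIs within each library, averaged over the 3 libraries. Tubulins were often each other's nearest genes. Tuba1b and Tubb5 were nearest to each other (mean r = 0.722), and Tuba1b was next followed by Hnrnpab (0.679), an RNA-binding protein gene, and Tubb6 (0.652). Tubb4b was nearest to Tuba1b (0.631), Tubb6 (0.611) and Ccna2 (0.608), the cyclin A2 gene. Tubb6 was nearest to Tuba1b, Ccna2 (0.618) and Tubb4b, and Tuba1c to Tubb4b (0.551), Ccna2 (0.517) and Cdk1 (0.515), the kinase that drives mitotic entry. After Tuba1b, Tubb5 was nearest to Cdk1 (0.614) and Ccna2 (0.559).

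Stmn1 was nearest to H2afz (0.510), which encodes a histone variant, 2810417H13Rik (0.432) and Tuba1b (0.423). The other 3 genes had weak correlations, and the part of their low counts per well in this was not tested. Tuba1a was nearest to Serpinf1 (0.265), which encodes a secreted serpin, the basal keratin gene Krt5 (0.256) and Col8a1 (0.255), a collagen gene. Tubb2a was nearest to Lcn2 (0.272), the milk casein gene Csn3 (0.266) and the ferritin gene Fth1 (0.254), and Tubb2b to Lcn2 (0.258), Csn3 (0.247) and the carbonic anhydrase gene Car2 (0.235). Lcn2 encodes lipocalin-2, a secreted iron carrier. Between Tuba1a and Tuba1b, which share most coding sequence, r was 0.268, 0.192 and 0.144 in GR17, GR18 and GR19, and between Tubb2a and Tubb2b it was 0.154, 0.308 and 0.205.

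Promoters of 7 members were in the RefSeq table of GRCm38.p6, which holds 250 bases before to 50 bases after each start. The 250 bases before the start are printed 5′ to 3′ for Tubb4b, Tubb5 and Tuba1b, which move together across wells, with capitals at CCAAT, the box bound by the factor NF-Y.
Tubb4b: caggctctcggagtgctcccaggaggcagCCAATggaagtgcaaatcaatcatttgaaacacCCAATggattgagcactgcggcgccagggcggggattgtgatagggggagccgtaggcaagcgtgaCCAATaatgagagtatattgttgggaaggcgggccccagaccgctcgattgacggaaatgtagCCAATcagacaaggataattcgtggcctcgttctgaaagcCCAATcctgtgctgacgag
Tubb5: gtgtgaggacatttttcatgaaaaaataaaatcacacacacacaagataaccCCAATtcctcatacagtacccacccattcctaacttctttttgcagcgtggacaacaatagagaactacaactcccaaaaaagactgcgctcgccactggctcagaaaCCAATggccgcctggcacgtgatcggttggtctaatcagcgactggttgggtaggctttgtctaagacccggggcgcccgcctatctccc
Tuba1b: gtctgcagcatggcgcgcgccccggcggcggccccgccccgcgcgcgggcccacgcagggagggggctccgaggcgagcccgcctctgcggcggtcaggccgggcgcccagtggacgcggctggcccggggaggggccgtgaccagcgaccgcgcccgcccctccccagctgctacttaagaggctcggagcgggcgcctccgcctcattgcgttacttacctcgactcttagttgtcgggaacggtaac
They lie on the minus strand at chr2:25224703-25224952, chr17:35838302-35838551 and chr15:98934391-98934640. CCAAT, searched on both strands, was found 5 times for Tubb4b, first at −221 and last at −19 from the start, and 0.271% of 32851 promoters held 5 or more. It was found 2 times for Tubb5, at −198 and −90, 1 time each for Tuba1a, Tuba1c and Tubb3, and not for Tuba1b and Tubb2a. In all, 5 of the 7 members held it, against 37.4% of all promoters.

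GGGCGG, the letters of a GC box, was found for 6 of the 7, all but Tuba1c, against 35.7% of all promoters. TTTGAA, the letters of the cell cycle homology region of many G2 and M phase genes, was found for Tubb4b, at −198, against 17.9% of all promoters. Of 2 letter strings of SOX sites, AACAAT was found 1 time each for Tubb4b and Tubb5, against 10.7% of promoters, and AACAAAG was not found in these windows of any of the 7, against 5.85%. Such matches describe the letters of these windows and show no binding.

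The other genes of the microtubule system were described from 8 lists with no gene in common with the 10, holding other tubulins, other stathmins, tubulin folding cofactors, chaperonin and prefoldin subunits, tubulin-modifying enzymes, the gamma-tubulin ring and augmin, microtubule-associated proteins and severing enzymes. Of their 120 genes, 95 were tested in bulk, and edgeR called 5 higher and 4 lower in the SOX4KO lines at an adjusted p under 0.1, against 4.10% of all genes higher and 2.17% lower. The median log2 difference over the 95 genes was 0.022. Called genes came from 2 of the lists only, the microtubule-associated proteins (4 higher and 3 lower of 28 tested) and the gamma-tubulin ring and augmin (1 higher and 1 lower of 17 tested).

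The 5 genes called higher were Tppp, Map6, Mapt, Mapre3 and Haus3. Tppp, which encodes tubulin polymerization promoting protein, had 5.18 and 8.96 CPM in WT1 and WT3 and 76.4, 73.8 and 57.0 in H7, M4 and H4 (log2 difference 3.26, standard error 0.29, adjusted p = 0.00451, edgeR with Benjamini-Hochberg adjustment). Map6, the gene of a protein that stabilizes neuronal microtubules, had 2 reads in each control line and 83, 51 and 19 in the SOX4KO lines (log2 difference 4.93, adjusted p = 0.0298 in edgeR). Mapt, the tau gene, had 19.4 and 14.7 CPM in the controls and 40.2, 47.2 and 35.2 in the SOX4KO lines (log2 difference 1.26, adjusted p = 0.0320 in edgeR). Mapre3, the gene of the plus-end protein EB3, had 28.5 and 24.7 CPM in the controls and 53.2, 48.2 and 54.4 in the SOX4KO lines (log2 difference 0.97, adjusted p = 0.0359 in edgeR). Haus3, an augmin subunit gene, had 25.1 and 21.3 CPM in the controls and 90.5, 57.6 and 45.5 in the SOX4KO lines (log2 difference 1.48, adjusted p = 0.0445 in edgeR).

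The genes called lower included the spindle assembly genes Tpx2 and Nusap1. Tpx2 had 43.0 and 38.0 CPM in the controls and 25.3, 23.0 and 17.0 in the SOX4KO lines (log2 difference −0.90, adjusted p = 0.0738 in edgeR), and Nusap1 30.5 and 35.6 against 18.5, 18.7 and 10.8 (log2 difference −1.06, adjusted p = 0.0798 in edgeR). Haus6, another augmin subunit gene, had a log2 difference of −1.07 (adjusted p = 0.0893 in edgeR), and Camsap3, the gene of a protein that holds microtubule minus ends, one of −0.99 (adjusted p = 0.0692 in edgeR). Without either control line, 1 list gene was called, Tppp in both cases, with the lone control line assumed to vary like the SOX4KO lines. In these fits the largest number was 12 called without M4.

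None of the other tubulins was called, with 5 of 11 tested. Tuba4a, an alpha-tubulin, had 114 and 94.0 CPM in the controls and 118, 140 and 163 in the SOX4KO lines, so that the groups did not overlap, with a log2 difference of 0.43 (standard error 0.20, adjusted p = 0.309 in edgeR). Tubb4a, a neuronal and glial beta-tubulin, had too few reads to be tested, and Stmn2, a neuronal stathmin, had no read in any bulk line and at most 6 UMIs in a single-cell library. Of the folding machinery that brings new tubulin into dimers, none of 8 cofactors and none of 14 chaperonin and prefoldin genes was called, and 1 of each had an unadjusted p under 0.05, Tbce and Cct6a, both with lower means in SOX4KO lines, against 18.1% of all genes tested. In the single-cell libraries Tbce pointed the other way, with 5.70 CPM in GR17 and 7.87 and 10.8 in GR18 and GR19. Cct6a was lower in both SOX4KO libraries, with 694, 554 and 552 CPM in the same order.

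In the single-cell libraries Tpx2 was the most abundant of the called list genes, with 121, 107 and 98.7 CPM in GR17, GR18 and GR19. Camsap3, called lower in bulk, had 4.93, 7.49 and 4.58 CPM, and Haus6 had 22.9, 19.1 and 17.7 CPM, with overlapping intervals for both. Tppp had 1 UMI in GR17, 23 in GR18 and 13 in GR19. Mapre3 had 28.0 CPM (24.4 to 32.0) in the control library, and 37.7 (33.6 to 42.2) and 35.7 (31.7 to 39.98) in GR18 and GR19, and Nusap1 had 37.6 CPM (33.4 to 42.2), 23.2 (20.01 to 26.8) and 19.3 (16.4 to 22.5). For Mapt the 3 values were 11.02, 11.2 and 12.9 CPM with overlapping intervals. Map6 had 10, 46 and 9 UMIs in GR17, GR18 and GR19, so that GR18 alone lay above the control. Neuronal defining markers were at or near 0, with Rbfox3, Syt1, Nefl and Nefm at 0 UMIs in all 3 libraries, although Map2 had 45.6 to 47.1 CPM.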

How the data were processed

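The values deposited by the authors are counts without normalization, by Ensembl gene for 5 bulk libraries and as UMIs by gene and well for 3 plates. The submitters' processing notes name STAR 2.4.2a and HTSeq 0.6.1p1 and the builds NCBIM37 and mm9, with no role for each data type. Bulk libraries were made with a directional kit from polyA RNA. Symbols and lengths came from GENCODE M21 (GRCm38), which matched 36345 of 38293 identifiers. The 10 genes, the 8 lists, the tests and the alternatives were chosen with earlier results of these data known.

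Bulk counts were tested with edgeR 4.0.16 in R 4.3.3 (filterByExpr, TMM factors, glmQLFit and glmQLFTest, Benjamini-Hochberg adjustment, threshold 0.1) and, as an alternative, DESeq2 1.42.0. CPM are TMM-scaled. The standard error of a log2 difference was derived from the F statistic. Bulk shares used CPM per kilobase of the merged annotated exons of each gene.

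Spike-in rows were removed and wells with at least 1000 UMIs kept, which left out 15, 15 and 22 wells. UMIs were summed per library, or per library and phase. Phases came from CellCycleScoring of Seurat 5.3.0 with 43 S and 53 G2M genes. Doublets were not called, and wells over 2 times the median depth (8, 20 and 11) were left out in an alternative. A gene was taken as measured at 20 CPM on average over the 3 libraries. Exact Poisson intervals, exact Clopper-Pearson intervals and the floor of 3 UMIs cover counting error only. Coding sequences were aligned with Biopython 1.88, and the coding tails of the alpha-tubulins are not reported here. Scripts were tested on simulated data.

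Named genes were the 10 members, Sox4, at most 5 called genes per list by lowest p, Stmn2, Tubb4a and Tuba4a, and the 3 nearest genes of each member. Tbce and Cct6a were named after their values were seen, as were the marker genes named singly. Alternatives are listed in the closing section.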

Additional observations from a re-analysis of the deposited data

Results flagged for a closer look

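Haus3 was the only called list gene or member whose bulk and single-cell differences pointed in opposite directions in every sample, among those with at least 20 CPM on average over the single-cell libraries and bulk groups that did not overlap. Every SOX4KO bulk line lay above both control lines, with a log2 difference of 1.48, whereas both SOX4KO single-cell libraries lay below GR17, with 25.3 CPM in GR17, 23.0 in GR18 and 23.1 in GR19 and a mean log2 ratio of −0.13. The Poisson intervals of the 3 libraries overlapped, and the difference between the assays was not tested. Groups of 1 to 3 samples were too small for an outlier to be called.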

How the results depend on the processing

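The number of bulk genes called moved from 733 to 1686 with at least 1 count in total as the filter and to 354 at an adjusted p under 0.05, and ranged from 56 to 1006 when each line was left out in turn, lowest without WT3, with 130 without WT1. DESeq2 called 999 genes and DESeq2 size factors gave 731. The count of list genes called, 9, moved to 5 at an adjusted p under 0.05 and ranged from 1 to 12 over the lines left out, with 1 without WT1 and 1 without WT3. Among the 10 members, 0 were called in the main fit, 0 with DESeq2 and 2 of the 9 tested had an unadjusted p under 0.05, against 18.1% of all genes tested. The count was 1 (Stmn1) with at least 1 count in total, where 1686 of all genes were called. It was 2 (Stmn1 and Tubb2b) without M4, where 1006 of all genes were called, and 0 without H7 or without H4. Because the members were chosen with this contrast known, nothing is read from their counts. Why these counts moved was not tested, except that fewer lines were fitted.

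The bulk log2 difference kept its sign under all alternatives for Tuba1a (−1.04 to −0.64), Tubb2b (−1.09 to −0.52), Tubb4b (−0.49 to −0.22), Tubb5 (−0.49 to −0.15) and Stmn1 (−1.995 to −0.86), and changed sign for Tuba1b, Tuba1c, Tubb2a and Tubb6 in at least 1. Single-cell log2 ratios kept their sign for all 9 measured members except Tubb2a, which was −0.0043 without large wells. The log2 of G2M over G1 kept its sign in all libraries for Tuba1b, Tuba1c, Tubb4b, Tubb5, Tubb6 and Stmn1, and changed it in some library for Tuba1a, Tubb2a and Tubb2b. No isotype share moved by more than its interval. No paired analysis was possible because the labels number no replicates, and the numbers given to the lines here follow accession order and tie none of them to another. Tuba1a rests on 21 to 84 bulk reads per line, and Tubb3 was not detectable at this depth.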
